A study of Mus musculus with 6 samples.

Results

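Fatty acid oxidation and ketone body genes were followed in livers of mice given long-term poloxamer P-407, a block copolymer used to induce hyperlipidemia. Members were taken by gene symbol, and the set holds 51 genes of the 17347 named by the arrays. Of these, 48 had a ratio in all 3 treated pools on the oligonucleotide array and 21 had one on the cDNA array, all 21 of them among the 48. Acaa1b and Acsl1 had no feature on either array, and Acot2 had a cDNA feature with a value in 1 pool.

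The treated group comprised 12 C57BL/6 females on low-fat chow (4.4% fat), 7 weeks old when dosing began. They received 0.5 g/kg P-407 intraperitoneally at 3-day intervals, and liver was collected on day 96. The control group was 4 mice of the same strain, sex, age and diet given saline on the same schedule. Treated liver RNA went into 3 pools and the RNA of all 4 controls into 1, so no value belongs to a single animal and the spread between control animals was not measured. Each treated pool, in Cy5, was read against the control pool, in Cy3, on 1 oligonucleotide and 1 cDNA array, with no dye exchange. Values are treated/control log ratios, taken to be base 2 and centred on each array's median, so 1 unit is a doubling and values above 0 mark higher RNA in a treated pool. The files give no intensities, so the level of a gene and its distance from background are unknown, and the labelled tissue could not be checked by the level of its markers. The log base is unstated, and if it were natural the fold changes here would be too small.

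Fatty acids reach oxidation as CoA esters, which the Acsl and Slc27a families make. Carnitine acyltransferases carry the esters into mitochondria, where chain-length-specific dehydrogenases, the trifunctional protein and thiolases shorten them, and the electrons leave through the electron transfer flavoprotein. Peroxisomes shorten very long and branched chains, Acot thioesterases cleave acyl-CoA back to free acids, and Cyp4a enzymes hydroxylate the far end of the chain. In liver much of the acetyl-CoA becomes ketone bodies, and many of these genes are known targets of the fatty acid receptor PPARA.

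Promoter sequences are shown for Crot, the member with the highest ratio, and for Acot1, Acot4 and Acot3, which are consecutive protein-coding genes on chromosome 12 in RefSeq's order and whose ratios differed in sign. The windows are from RefSeq on build GRCm38.p6, from 250 bases before to 50 after the gene start, printed 5′ to 3′ on the gene's strand. Capitals mark the nuclear receptor half-site AGGTCA on either strand, and in Acot4 a DR1 element, which is this half-site repeated in tandem with any 1 base between, at 2 mismatches. In Acot4 the DR1 match lies on the opposite strand and contains the half-site, which reads TGACCT as printed.
Crot (chr5:8997097-8997396, - strand): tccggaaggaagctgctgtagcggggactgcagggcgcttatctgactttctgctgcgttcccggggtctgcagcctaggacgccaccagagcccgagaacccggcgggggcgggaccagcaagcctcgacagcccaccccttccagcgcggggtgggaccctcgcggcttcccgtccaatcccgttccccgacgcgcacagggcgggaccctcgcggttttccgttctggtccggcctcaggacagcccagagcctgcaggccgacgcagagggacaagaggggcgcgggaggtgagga
Acot1 (chr12:84009252-84009551, + strand): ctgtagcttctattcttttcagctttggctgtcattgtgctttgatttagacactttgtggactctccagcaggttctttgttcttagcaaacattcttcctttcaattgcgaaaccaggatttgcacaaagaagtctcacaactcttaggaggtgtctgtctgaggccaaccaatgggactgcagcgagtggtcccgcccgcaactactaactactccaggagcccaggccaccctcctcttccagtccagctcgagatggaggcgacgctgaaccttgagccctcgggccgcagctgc
Acot4 (chr12:84038129-84038428, + strand): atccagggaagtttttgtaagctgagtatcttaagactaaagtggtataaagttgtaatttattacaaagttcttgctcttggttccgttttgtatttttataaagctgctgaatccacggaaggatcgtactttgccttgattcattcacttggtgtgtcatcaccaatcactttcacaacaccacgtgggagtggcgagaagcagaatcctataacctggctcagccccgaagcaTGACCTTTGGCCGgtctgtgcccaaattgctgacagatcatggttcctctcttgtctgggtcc
Acot3 (chr12:84051894-84052193, + strand): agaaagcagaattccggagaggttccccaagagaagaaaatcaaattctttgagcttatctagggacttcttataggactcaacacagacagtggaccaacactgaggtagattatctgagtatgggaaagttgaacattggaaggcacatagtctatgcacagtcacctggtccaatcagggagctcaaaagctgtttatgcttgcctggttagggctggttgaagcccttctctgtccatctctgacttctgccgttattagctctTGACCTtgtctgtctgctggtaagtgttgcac
DR1, the element that PPARA binds together with RXR, was searched on both strands with at most 2 mismatches. It was in 3 of 45 member windows (6.67%), those of Acot12, Acot4 and Etfa, against 3.86% of 32851 windows of this length. The half-site was in 9 of 45 (20%), against 16.3% of all windows. The 9 include both windows of Acot3, which overlap and share 1 site, so that site was counted in each. A match is a description of the letters and not a binding site. The windows came from 42 members. The other members, Acaa2, Cpt1b, Crat, Cyp4a10, Cyp4a12a, Cyp4a14, Decr1, Hsd17b4 and Vnn1, had no matched window. The Crot and Acot1 windows held neither string, and Acot3 held the half-site alone.

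Which members differed from control was asked on the oligonucleotide array. Crot and Hacl1 of the peroxisome rose, while Acot3, Acsl3 and Pecr fell, and 14 of 16 mitochondrial members did not pass. Acot3, Acsl3 and Pecr had no cDNA feature, so each of these decreases rests on 1 oligonucleotide feature. In all 16 of 48 members passed limma's test at an adjusted p under 0.05, 7 higher and 9 lower (33.3%), against 43.4% of all 16871 genes tested (22.0% higher and 21.4% lower). The share of called members was thus below the background. The median log2 ratio was -0.05 over the 48 members and 0.00 over all genes. A total of 20 members (41.7%) had the same sign in all 3 pools, against 69.2% of all genes. Chemosensory receptor genes, a family of the sense organs, give a scale for these ratios: 95% of 864 chemosensory receptor genes lay within 0.41 of 0, and 5 of 48 members (10.4%) lay beyond it, against 8.86% of all genes. Of these receptor genes 313 (36.2%) passed the same limma threshold, 95 higher and 218 lower, a share above that of the members. Those 5 members were Acot3, Crot, Acsl3, Hacl1 and Pecr. They were also the 5 called members with an absolute ratio of at least 0.32, 2 higher and 3 lower, where 14.7% of all genes were called (7.74% higher and 7.01% lower).

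**Figure D1:**
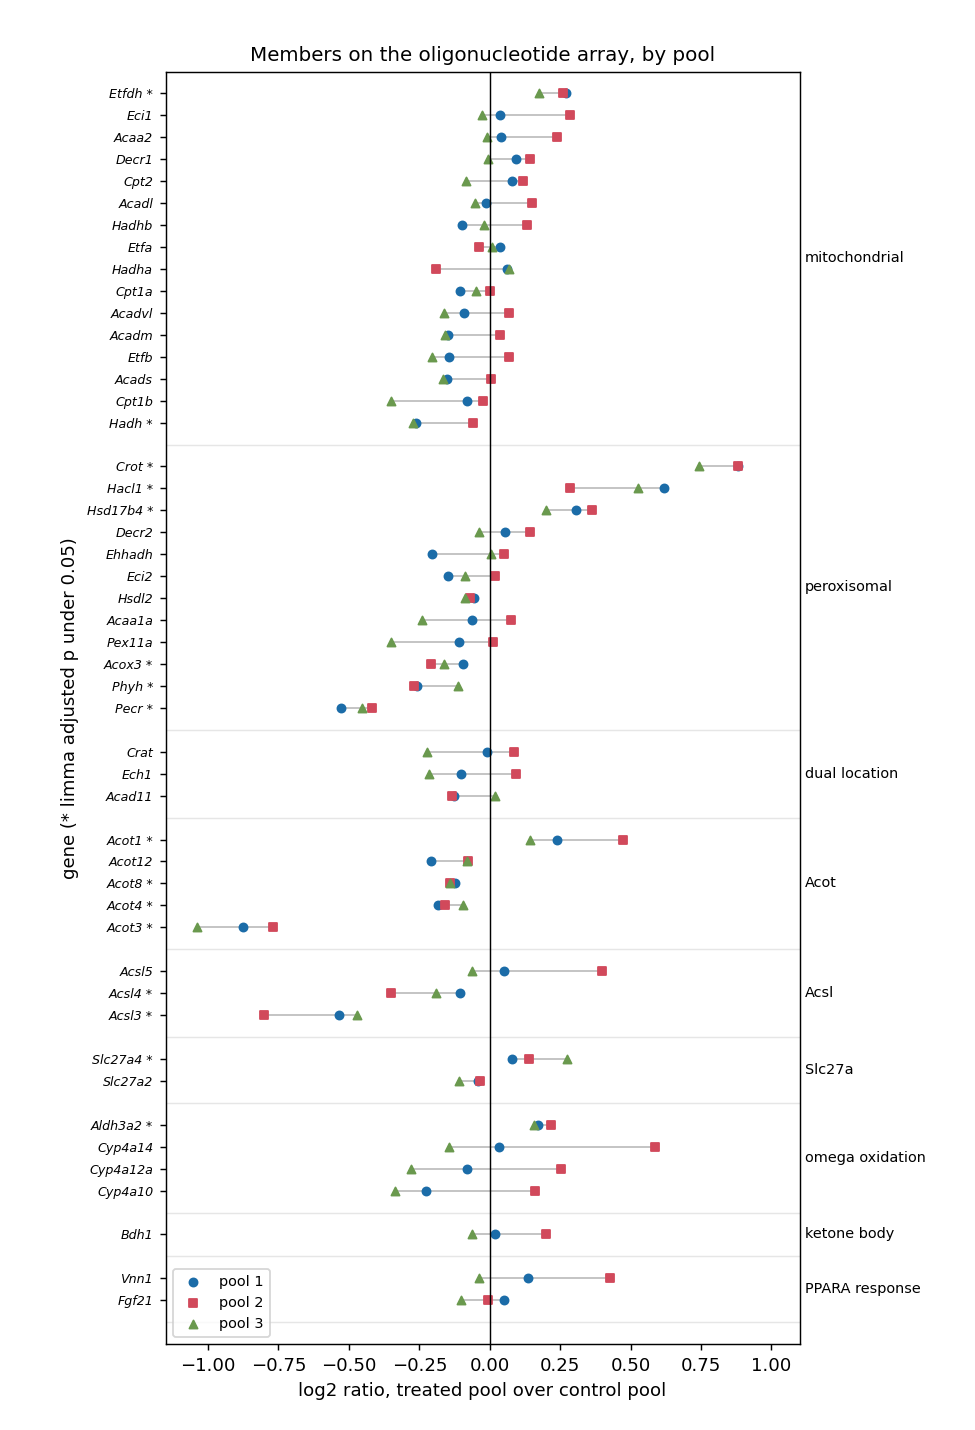
Log2 ratio of treated over control (horizontal axis) for 48 members (vertical axis), grouped by role, with 1 point for each of the 3 pools on the oligonucleotide array and a bar from the lowest to the highest pool. Asterisks mark members past the limma threshold, and pool 2 is the rightmost point in 33 of the 48.

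Of the 16 mitochondrial members, 1 rose, 1 fell and 14 did not pass (12.5% called, against 43.4% of all genes). Etfdh, which passes electrons from the electron transfer flavoprotein to ubiquinone, had ratios of 0.27, 0.26 and 0.18 in pools 1, 2 and 3. All 3 pools lay above 0, with a mean of 0.24 ± 0.05 (SD, n = 3 pools, limma adjusted p = 0.00772). Hadh, the short-chain hydroxyacyl-CoA dehydrogenase, had ratios of -0.26, -0.06 and -0.27, all below 0, with a mean of -0.20 ± 0.12 (limma adjusted p = 0.0332). The entry step did not pass: Cpt1a, the carnitine palmitoyltransferase of the outer membrane, lay at -0.10, 0.00 and -0.05, and its 95% interval ran from -0.16 to 0.05. Cpt2 of the inner membrane lay at 0.08, 0.12 and -0.08. Cpt1b, the muscle form, had a mean of -0.15 ± 0.17.

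The 4 acyl-CoA dehydrogenases, which start each turn on long (Acadvl, Acadl), medium (Acadm) and short chains (Acads), had means from -0.10 to 0.03, and none passed. The trifunctional protein subunits Hadha and Hadhb had means of -0.02 ± 0.15 and 0.00 ± 0.12. The thiolase gene Acaa2, the isomerase gene Eci1 and the reductase gene Decr1 had means of 0.09, 0.10 and 0.08. The flavoprotein subunits Etfa and Etfb had means of 0.00 ± 0.04 and -0.09 ± 0.14. The subgroup's median was -0.01. On this array the deposited table repeats each of Cpt1a, Acaa2 and Pex11a over 10 features that hold 1 identical ratio per array, so these repeats carry no independent measurement. This was so for 40 of the 47 genes with at least 10 features.

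The peroxisomal members moved in both directions. Of 12 measured, 3 rose and 3 fell (50% called), with a median of -0.07 and a mean of 0.034, which differ in sign. Over all genes 43.4% were called, 22.0% higher and 21.4% lower, so calls in both directions were not particular to this group. Crot, which attaches carnitine to medium-chain products so that they can leave the peroxisome, had ratios of 0.88, 0.88 and 0.74. Every pool was far above 0, and the mean of 0.83 ± 0.08 is 1.78-fold (limma adjusted p = 0.000354). Its absolute ratio was at percentile 98.5 of all genes. Hacl1, the lyase that splits off formyl-CoA in alpha-oxidation, had ratios of 0.62, 0.29 and 0.53, lowest in pool 2, with a mean of 0.48 ± 0.17 (adjusted p = 0.00392). Hsd17b4, the bifunctional protein for branched and very long chains, had ratios of 0.31, 0.36 and 0.20 and a mean of 0.29 ± 0.08 (adjusted p = 0.00578).

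Pecr, the peroxisomal trans-2-enoyl-CoA reductase, had ratios of -0.53, -0.42 and -0.45. The pools lay close together, 1.38-fold below control on average (-0.47 ± 0.06, adjusted p = 0.00110). Phyh, which opens alpha-oxidation of phytanic acid ahead of Hacl1, lay at -0.26, -0.27 and -0.11 (mean -0.21 ± 0.09, adjusted p = 0.0165). The 2 enzymes of alpha-oxidation thus passed in opposite directions on this array. Acox3, an oxidase for branched chains, lay at -0.09, -0.21 and -0.16 (mean -0.15 ± 0.06, adjusted p = 0.0327). Among known PPARA targets of this group, Ehhadh, Acaa1a and Pex11a, a factor of peroxisome division, did not pass. Their means were -0.05 ± 0.14, -0.08 ± 0.16 and -0.15 ± 0.18. Apart from Vnn1 below, the other members of the whole set, called or not, were not sorted by whether PPARA controls them. No statement on PPARA targets as a group follows from the genes labelled here. Decr2, Eci2 and Hsdl2 had means of 0.05, -0.07 and -0.07. Acaa1a and the unmeasured Acaa1b are near-identical copies, so a probe could read either gene. The members placed in both organelles, Crat, Ech1 and Acad11, had means of -0.05, -0.08 and -0.08, and none passed.

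The Acot thioesterases held the member with the lowest ratio. Of 5 measured, 1 rose and 3 fell (80% called, against 43.4% of all genes). All 5 had the same sign in every pool, against 69.2% of all genes. Acot3, a peroxisomal thioesterase for long acyl-CoA, had ratios of -0.88, -0.77 and -1.04. It was 1.86-fold lower (-0.89 ± 0.14, adjusted p = 0.000518), at percentile 98.8 of absolute ratio among all genes. Acot1, the cytosolic thioesterase encoded 2 genes away, had ratios of 0.24, 0.47 and 0.14, highest in pool 2, and a mean of 0.29 ± 0.17 (adjusted p = 0.0197). Acot4, a peroxisomal thioesterase for dicarboxylic chains encoded between them, lay at -0.18, -0.16 and -0.09 (mean -0.15 ± 0.05, adjusted p = 0.0353). Acot8 lay at -0.12, -0.14 and -0.14 (mean -0.14 ± 0.01, adjusted p = 0.0358). Acot12, a cytosolic acetyl-CoA hydrolase, lay at -0.21, -0.08 and -0.08 and did not pass (adjusted p = 0.0800). Acot1 and Acot2 are near-identical copies, and the cDNA feature of Acot2 held -0.85, in pool 3 only.

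The Acsl synthetases, which activate long chains, had the lowest subgroup median (-0.22 over 3 measured genes). Acsl3, an enzyme of the endoplasmic reticulum and lipid droplets, had ratios of -0.53, -0.80 and -0.47, lowest in pool 2. It fell 1.52-fold (mean -0.60 ± 0.17, adjusted p = 0.00207). Acsl4, which prefers arachidonic acid, lay at -0.11, -0.35 and -0.19, also lowest in pool 2 (mean -0.22 ± 0.12, adjusted p = 0.0264). Acsl5 lay at 0.05, 0.40 and -0.06 and did not pass, with pool 2 far above the others. Of the Slc27a carriers with synthetase activity, Slc27a4 lay at 0.08, 0.14 and 0.27 (mean 0.16 ± 0.10, adjusted p = 0.0454), and Slc27a2 at -0.04, -0.03 and -0.11, which did not pass.

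Omega-oxidation and the remaining members gave 1 call. Aldh3a2, the fatty aldehyde dehydrogenase, lay at 0.17, 0.22 and 0.16 (mean 0.18 ± 0.03, adjusted p = 0.0154). Cyp4a14 lay at 0.03, 0.59 and -0.15, and Cyp4a10 at -0.23, 0.16 and -0.34. Cyp4a12a lay at -0.08, 0.25 and -0.28. In these 3 hydroxylase genes pool 2 was above 0 while pool 3 was below it, so their means (0.16, -0.13 and -0.04) describe no pool well. Vnn1, a pantetheinase known as a PPARA target, lay at 0.14, 0.43 and -0.04. Fgf21, the hepatic fasting hormone, had ratios of 0.05, -0.01 and -0.10, and its 95% interval ran from -0.13 to 0.10. Bdh1, which reduces acetoacetate to beta-hydroxybutyrate, lay at 0.02, 0.20 and -0.06. None of these passed. Cyp4a genes are close copies, and a probe could read several.

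Of the 16 calls, 6 held with any 1 pool left out, namely Crot, Hacl1, Hsd17b4, Pecr, Acot3 and Acsl3. Without pool 1, 7 members were called, without pool 2, 9, and without pool 3, 12. Acot8, Acox3 and Slc27a4 lost their call whichever pool was left out (adjusted p from 0.0777 to 0.150). Etfdh lost its call without pool 1 (0.0590), and Hadh without pool 1 or 3 (0.166 and 0.112). Acot1 (0.0620 and 0.0574), Acot4 (0.194 and 0.115), Aldh3a2 (0.0819 and 0.0673) and Phyh (0.101 and 0.0771) lost theirs without pool 1 or 2. Acsl4 lost its call without pool 2 or 3 (0.0971 and 0.0588). Cyp4a10 passed without pool 2 (-0.28, adjusted p = 0.0261) and Vnn1 without pool 3 (0.28, adjusted p = 0.0438).

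How the 3 pools differed was asked next, and the members tended to be highest in pool 2. On the oligonucleotide array 33 of 48 members (68.8%) had their highest ratio in pool 2, against 32.5% of all genes, and 32 (66.7%) had their lowest in pool 3, against 36.2%. The median log2 ratio of the members was -0.07 in pool 1, 0.07 in pool 2 and -0.09 in pool 3. By role, pool 2 was highest in 13 of 16 mitochondrial, 7 of 12 peroxisomal, 3 of 5 Acot, 1 of 3 Acsl and 4 of 4 omega-oxidation members. The mitochondrial median was -0.05, 0.07 and -0.05 in pools 1, 2 and 3, and the peroxisomal median was -0.08, 0.03 and -0.09. The Acsl median was lowest in pool 2 (-0.11, -0.35 and -0.19).

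**Figure D2:**
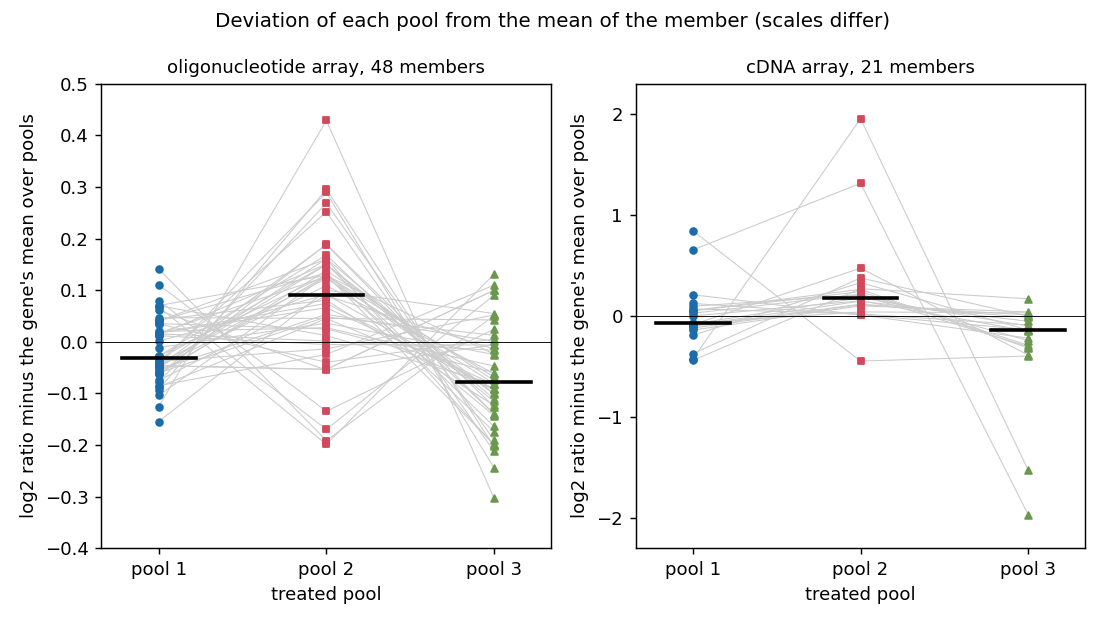
Each line is 1 member, and its points give the log2 ratio in a pool minus the member's mean over the 3 pools (vertical axis, with a wider scale for the cDNA array). Black bars are medians, which on the oligonucleotide array are -0.03, 0.09 and -0.08 and on the cDNA array -0.07, 0.18 and -0.14 for pools 1, 2 and 3.

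On the oligonucleotide array the gap between pool 2 and pool 3 was widest in Cyp4a14 (0.73 log2 units), followed by Cyp4a12a (0.53), Cyp4a10 (0.50), Vnn1 (0.46), Acsl5 (0.46), Pex11a (0.36) and Acot1 (0.33). These genes were singled out after their values were seen. Acsl3 (-0.33), Hadha (-0.26) and Hacl1 (-0.24) had the widest gaps in the other direction. On the cDNA array the gap was widest in Crot (3.48) and Hsd17b4 (3.28), against 0.86 in Cyp4a14, and that of Hacl1 was 0.15.

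The cDNA arrays read the same RNA through other probes, with labelling that had no amplification. There 17 of 21 members (81.0%) were highest in pool 2, against 38.1% of all genes, and 20 of 21 lay higher in pool 2 than in pool 3 (95.2%, against 57.6%). The cDNA array of pool 3 correlated only weakly with those of pools 1 and 2 (0.34 and 0.29 over all genes). Of the 21 members, 15 (71.4%) were highest in pool 2 on both array types, against 13.9% of 4702 genes. Cyp4a14 lay at 0.29, 0.85 and -0.01 there, the same order as on the other array. Eci1 lay at 0.03, 0.55 and 0.08, and Acaa2 at 0.23, 0.42 and -0.11. A cDNA feature that names both Cyp4a10 and Cyp4a32 held 0.33, 0.79 and 0.01.

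Pool differences were tested over the 6 arrays with array type as a term. No member of 21 passed limma's F test (0.00% of 4702 genes were called), 1 member and 37 genes had an unadjusted p under 0.05, and the member was Cyp4a14 (unadjusted p = 0.0166, adjusted p = 0.785). The order of the pools is therefore a description. Each pool is 1 mixture of RNA, the members of a pool share its array, and which mice went into which pool is not stated in the labels.

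The same counts were taken in other gene sets, with no test of the difference. Of 24 measured hepatocyte markers, 2 (8.33%) were highest in pool 2 on the oligonucleotide array and 5 of 16 on the cDNA array. On the oligonucleotide array Alb, Ahsg, Fgb and Serpina1d shared a mean of -0.275 and an SD of 0.264. These markers may therefore not be separate measurements, and the cause was not tested. Of 78 other genes of the pathway, 34 (43.6%) were highest in pool 2 on the oligonucleotide array and 14 of 34 (41.2%) on the cDNA array. Among those 78, Cyp4a31 (0.15, 0.61 and -0.09), Pdk4 (1.35, 1.49 and 1.02), Angptl4 (-0.45, -0.19 and -0.58) and Ppargc1a (-0.44, 0.11 and -0.23) were highest in pool 2. Of the 78, 27 were lowest in pool 2, beside 6270 of all 16871 genes. Among the 27 were Acss2 (-1.17, -1.69 and -0.70) and Acacb (-0.66, -1.25 and -0.50), both of fat synthesis and its control. Nudt7 (-0.47, -0.68 and 0.01), Cyp4f14 (-0.19, -0.39 and 0.10) and Acbd5 (-0.24, -0.41 and 0.05) were also among these 27. All of these genes were named after their values were seen. Which feature of the pools moved with this order was not tested.

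**Figure D3:**
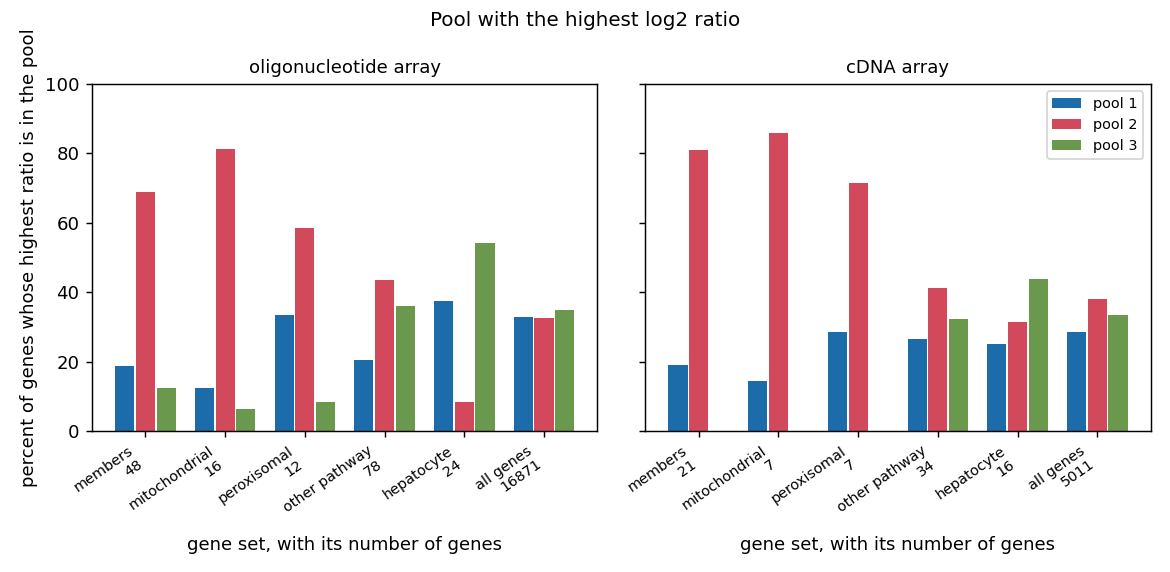
Percent of genes (vertical axis, from 0) whose highest log2 ratio lay in pool 1, 2 or 3, for gene sets given with their number of genes, on each array type. Pool 2 has 68.8% of the members and 32.5% of all genes on the oligonucleotide array, and 81.0% and 38.1% on the cDNA array.

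Whether the array types gave the same ratios was asked for the 21 members on both. The cDNA array called no member and no gene at all (0.00% of 5011 tested), with 8 members and 1518 genes at an unadjusted p under 0.05. Its pools spread more widely: the median SD over pools of the 21 members was 0.23 there and 0.12 on the oligonucleotide array. Over the 4702 genes on both array types it was 0.31 and 0.075. The members thus spread more than all genes on the oligonucleotide array and less on the cDNA array. Over all genes, the cDNA array of pool 3 correlated with those of pools 1 and 2 at 0.34 and 0.29, while pools 1 and 2 correlated at 0.70. Crot lay at 1.85, 4.23 and 0.75 on the cDNA array, above 0 in every pool but with a mean of 2.28 ± 1.78. Hsd17b4 lay at 2.33, 2.99 and -0.29, so its mean of 1.68 ± 1.73 rests on pools 1 and 2. Hacl1 lay at 0.71, 0.60 and 0.45, above 0 in all 6 arrays. The means of 13 of the 21 members (61.9%) had the same sign on both array types, against 58.3% of all genes. Of the members called on the oligonucleotide array, Phyh, Hadh and Aldh3a2 had the other sign on the cDNA array. Hadh lay at 0.15, 0.30 and 0.00 there, and Aldh3a2 at -0.12, 0.14 and -0.14. Crot, Hacl1 and Hsd17b4 had the same sign of the mean on both array types. The remaining called members had no cDNA ratio to compare.

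With the arrays of a pool averaged, no member passed, against 5.10% of 4702 genes called (2.47% higher and 2.64% lower), and 5 members had an unadjusted p under 0.05. Hacl1 came nearest (0.53 ± 0.12, adjusted p = 0.0533), then Acads (-0.67 ± 0.22, 0.0573) and Crot (1.56 ± 0.92, 0.0830). Without pool 3, Hsd17b4 passed (adjusted p = 0.0449). With all 6 arrays in a fit that took the pool as a random block, 4 of 21 members passed, against 26.9% of 4702 genes (13.7% higher and 13.3% lower). They were Acads (-0.67), Acadvl (-0.25), Hacl1 (0.53) and Slc27a2 (0.22). That fit put the correlation between the arrays of a pool at 0.054, and so took them as nearly independent.

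The difference between array types itself passed for 3 of 21 members (14.3%), a share near the 11.4% of 4702 genes (6.25% with the oligonucleotide ratio higher and 5.17% with it lower). This fit takes the array types to spread alike, which they did not, and on simulated data it called too many genes, so its adjusted p-values are too small. Acads lay at -0.15, 0.01 and -0.16 on the oligonucleotide array and at -1.68, -0.97 and -1.07 on the cDNA array, without overlap (difference 1.14, adjusted p = 0.0339). Phyh was below 0 in all oligonucleotide arrays and at 0.45, 0.40 and 0.29 on the cDNA arrays (difference -0.59, adjusted p = 0.0324). Slc27a2 was below 0 in all oligonucleotide arrays and at 0.39, 0.61 and 0.48 on the cDNA arrays (difference -0.55, adjusted p = 0.0377). With the pool number as a replicate block 0 members and 0 genes passed, and these 3 had adjusted p from 0.128 to 0.138. Without pool 1 or without pool 2, 0 members passed, and without pool 3 the 3 members were Acad11, Hsd17b4 and Phyh. The direction of the ratio in treated liver is thus not settled for Phyh and Slc27a2. Bdh1 lay at -0.97, -0.22 and -0.60 on the cDNA array (adjusted p = 0.156).

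**Figure D4:**
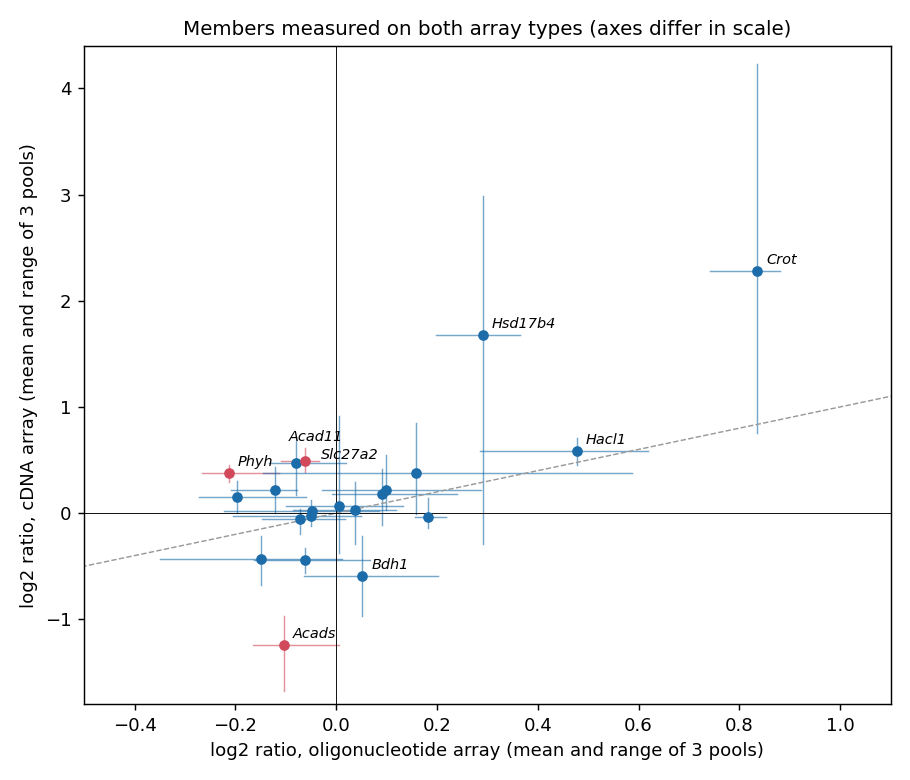
Mean log2 ratio of 21 members on the oligonucleotide array (horizontal) and the cDNA array (vertical, a wider scale), with bars from the lowest to the highest of the 3 pools and a dashed line of equal ratios. Red marks the 3 members whose array types differed by limma, Acads, Phyh and Slc27a2, and Crot and Hacl1 lie above 0 on both.

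Of the 27 members with a cDNA feature of their own, 6 lacked a value on some array. Vnn1 held -0.43 and -0.58 in pools 1 and 3, and Ech1 (0.29) and Cpt1b (-0.06) held a value in pool 3 only, as did Acot2. Acadm and Slc27a4 were listed at 0 on all 3.

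Around the members, 78 of 89 other genes of fatty acid oxidation, ketone bodies and their control were measured on the oligonucleotide array, and more of them were lower than higher. Of these 9 were higher and 34 lower (55.1% called, against 43.4% of all genes), with a median of -0.12. The 5 increases with the smallest p were Slc16a6, Pdk4, Oxct1, Slc16a1 and Acot9. Slc16a6, a ketone body exporter of hepatocytes, lay at 1.08, 0.80 and 0.88 (mean 0.92 ± 0.15, adjusted p = 0.000535). Oxct1, the enzyme that activates ketone bodies for use and that hepatocytes lack, lay at 1.05, 0.76 and 0.81 (mean 0.88 ± 0.16). Slc16a1, a carrier of lactate and ketone bodies, lay at 0.57, 0.45 and 0.37, and on the cDNA array it averaged 0.93 ± 0.16. Acot9, a mitochondrial thioesterase, had a mean of 0.44 ± 0.09. Pdk4, which blocks pyruvate entry, lay at 1.35, 1.49 and 1.02 on this array and averaged -0.67 ± 0.25 on the cDNA array.

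The 5 decreases with the smallest p were Pex19, Esrra, Slc25a17, Ppara and Bbox1, while the ratios of Acss2 and Acacb, given above, were lower than theirs. Ppara itself lay at -0.64, -0.57 and -0.36 (mean -0.53 ± 0.15, adjusted p = 0.00222) and averaged -0.84 ± 0.22 on the cDNA array. Esrra, a receptor that drives mitochondrial genes, had a mean of -0.44 ± 0.05, and -0.55 ± 0.14 on the cDNA array. Pex19 and Slc25a17, a chaperone and a carrier of the peroxisomal membrane, had means of -0.45 ± 0.03 and -0.46 ± 0.07. On the cDNA array Pex19 averaged -0.47 ± 0.24 and Slc25a17 0.08 ± 0.18. Bbox1, the last enzyme of carnitine synthesis, had a mean of -0.38 ± 0.07. None of these passed on the cDNA array, where no gene did.

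Markers of cell types were counted against the 43.4% of all genes called. Of 26 measured macrophage markers, 21 were higher and 4 lower, with pool medians of 1.25, 1.03 and 0.97 (96.2% called). Of 24 measured hepatocyte markers, 0 were higher and 10 lower (41.7%), with a median of -0.23 and a range from -1.23 to 0.11. Alb, Ahsg, Fgb and Serpina1d, with nearly the same mean and SD, enter that median as separate genes. Of 12 neutrophil markers, 9 were higher (75%). Of 11 adipocyte markers 2 were higher and 2 lower, of 18 striated muscle markers 5 and 2, of 12 pancreatic markers 2 and 0, and of 14 endothelial markers 0 and 4. The shares called in either direction in these last 4 lists, and in hepatocyte markers, lay below that of all genes. By direction the picture differed: all hepatocyte (41.7%) and endothelial calls (28.6%) were lower, against 21.4% of all genes called lower. All pancreatic calls (16.7%) were higher, against 22.0% of all genes called higher. The part of any marker list in the members' ratios was not tested, and in pooled tissue fewer cells of a type and less RNA per cell cannot be told apart. Every array also shares the same control pool and dye orientation, so a dye effect of a gene and an effect of treatment cannot be told apart.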

How the data were processed

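Liver RNA of 3 treated pools was read against 1 control pool on 6 two-colour Agilent arrays. The authors deposited 1 log ratio per feature and array, normalized by a method the labels leave out. The deposited values were taken as log2 ratios of Cy5 (treated) over Cy3 (control), per the labels. Scanner, background correction and filters: not given in the sources used. With 6 arrays, their number limits the precision.

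A deposited 0 counted as missing (1257 to 1277 features per oligonucleotide array, 3421 to 5332 per cDNA array), and the median of the remaining features was subtracted per array (0.01 for each oligonucleotide array, from -0.09 to -0.02 for the cDNA arrays). Gene names came from GEO's platform tables. Among 22575 oligonucleotide features 18658 carried 1 gene name, 30 several and 3887 none, and of 13482 cDNA features 7410, 438 and 5634. Features naming 1 gene with a value in all 3 pools were averaged per gene.

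Each array type was fitted with limma 3.58.1 in R 4.3.3 (mean of 3 pools against 0, empirical Bayes, Benjamini-Hochberg over all genes, threshold 0.05). The control pool counts as 1 control sample and its own spread is left out. Nothing in the labels describes the mice of a pool, so p-values measure the spread between 3 pools. Averaged pools, the difference between array types and a pool F test used the 4702 genes on all 6 arrays. Pool numbers pair the arrays because each RNA was split, per the series' design text. Deviations of the arrays of a pool correlated at 0.06, 0.07 and 0.07 for pools 1, 2 and 3. The array types have unequal spread, which the test of their difference does not model. On simulated data with the real spreads that test called more unchanged genes than its threshold allows, the fit with the pool block kept to it, and the fits of each array type on its own came slightly above it. Alternatives covered zeros, centring, feature choice, the prior, size of change, the block and each pool left out.

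Members, subgroups and lists were chosen with earlier results of these data known. Named were all members past a threshold, the highest and lowest member of each subgroup, and of the other pathway genes the 5 with the smallest p in each direction. Other members are given by their values for completeness. Promoters were scanned in Python 3.11.15, and plots used matplotlib 3.10.9.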

Additional observations from a re-analysis of the deposited data

Results flagged for a closer look

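The ratios of 3 of 21 members (14.3%) differed between the array types in the fit without the pool block, near the 11.4% of 4702 genes. With the pool as a replicate block 0 members and 0 genes passed, and the fit without it called too many genes on simulated data. For Acads the oligonucleotide array lay 1.14 log2 units above the cDNA array. For Phyh it lay below by a difference of -0.59, and for Slc27a2 by a difference of -0.55. No test for single outlying arrays was run in groups of 3. The cDNA array of pool 3 correlated with those of pools 1 and 2 at 0.34 and 0.29, against 0.70 between pools 1 and 2.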

How the results depend on the processing

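The 16 member calls on the oligonucleotide array were the same 16 with zeros kept, without centring, with the first feature of a gene or with a robust prior. Calls with an absolute ratio of at least 0.32, or beyond the chemosensory range (chosen after seeing the data), numbered 5. The plain one-sample test called 0 members, 0 other pathway genes and 40 genes in all, and on the cDNA array 1 gene, no member. With a pool left out the counts ran from 7 to 12 for members, 27 to 40 for the other pathway genes and 4025 to 6244 for all genes. At the size of 0.32 the last 2 were 20 and 2487. With arrays averaged per pool, 0 members passed, 0 to 1 with a pool left out and 4 with the pool as a random block. For the difference between array types, 3 members passed, 0 with the replicate block, and 0 to 3 with a pool left out. The mean in place of the median gave 0.034 for the peroxisomal and -0.20 for the Acot members, and moved the other subgroups by less than the spread between pools. Tests with a pool left out have fewer samples, and for the other changes the cause was not tested. No called member changed sign under an alternative run on the oligonucleotide array, while Phyh turned to 0.083 with the array types averaged. Signal over background is unknown.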
